A study of Mus musculus with 7 samples.

Results

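The 542 regions described here are the peaks recovered with lnc-31 probes in mouse myoblasts that no lacZ probe peak touched. The lnc-31 probe list held 596 peaks and the lacZ list 476, or 1072 in all. A peak was kept when it shared not even 1 base with a lacZ peak, with strand ignored. The members were thus selected on the authors' peak calls in both lists, and no test can rest on those calls. That removed 54 lnc-31 peaks, and 423 lacZ peaks in turn touched no lnc-31 peak. All groups were proliferating C2C12 cells, an established mouse myoblast line. The pull-down used biotinylated antisense probes that pair with lnc-31, and as a nonspecific control probes that pair with lacZ of bacteria, with 1 library for each probe set. The knockdown had 2 libraries treated with scrambled siRNA and 2 with lnc-31 siRNA. A pull-down input library was not analysed here.

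lnc-31 is a long noncoding RNA of the primary transcript that also carries the microRNA miR-31. In such a pull-down, probes complementary to an RNA are bound to beads, and whatever RNA stays attached to the target is recovered and sequenced. The title of the series names lnc-31 as a scaffold for translation of Rock1 mRNA, which encodes a kinase. Peaks can therefore mark pieces of the target RNA itself or pieces of other transcripts present in the pull-down. How those other transcripts came to be recovered was not tested.

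The locus of the probe target was among the recovered regions. RefSeq places the lncRNA gene Gm49890 over the miR-31 hairpin, at chr4:88909854-88942042 on the minus strand of GRCm38.p6, the build with the same coordinates as mm10. This gene held 11 lnc-31 probe peaks, of which 4 had no lacZ overlap and 7 overlapped a lacZ peak. The widest of the 4 covered 1000 bases at chr4:88909801-88910800, reached the annotated 3′ end of Gm49890 and contained the whole hairpin. It was the only 1 of the 542 peaks that touched an annotated miRNA hairpin, and 0 lacZ peaks did. The hairpin is shown because the peak of 1000 bases spans it, with the bases of both mature products in capitals. The mature miR-31 sequences follow with their seeds (bases 2 to 8) in capitals. All 3 are from RefSeq, 5′ to 3′, at chr4:88910557-88910662 for the hairpin.
Mir31 hairpin: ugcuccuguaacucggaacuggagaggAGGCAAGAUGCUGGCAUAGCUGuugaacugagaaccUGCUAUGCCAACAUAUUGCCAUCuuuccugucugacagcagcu
mmu-miR-31-5p: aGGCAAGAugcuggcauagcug
mmu-miR-31-3p: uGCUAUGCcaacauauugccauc

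The other 3 peaks of the locus lay at chr4:88927801-88928000, chr4:88932001-88932400 and chr4:88937201-88937400. Each peak carries a value in column 7 of the deposited list, which no label names and which is read here as a p-value from its range. It is the authors' value, used only to describe and rank peaks. The hairpin peak had a column 7 value of 1.25e-05, and the other 3 had 5.39e-07, 3.19e-05 and 3.24e-05. The 6 lacZ peaks of the locus had values between 0.000464 and 0.00407, and each was overlapped by a lnc-31 peak. All 4 values without lacZ overlap were thus smaller than every lacZ value of the same gene. This was not particular to them. The lnc-31 peaks of the locus that overlapped lacZ peaks had values from 7.96e-07 to 0.000587, and all but the largest were also below every lacZ value.

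Some peaks reached a transcription start, where RefSeq promoter sequence (from 250 bases before to 50 bases after a start, 32851 windows) could be read. Of the 542 peaks, 18 (3.32%) touched such a window, against 4 (0.840%) of all 476 lacZ peaks, including those that overlap a lnc-31 peak. The stretches at Set, Gadd45g and Vegfd are printed because Set and Gadd45g changed in the knockdown and Vegfd also holds 1 of the widest peaks near its other end. Capitals mark CCAAT, found as ATTGG on the reverse strand, and TATAAA, found as TTTATA on the reverse strand. All 3 are read on the plus strand, which is the strand of each gene. The Set peak is whole, at chr2:30061801-30062000. The Gadd45g stretch is the part of its peak inside the window, chr13:51846601-51846724. The Vegfd stretch is chrX:164373401-164373571.
Set: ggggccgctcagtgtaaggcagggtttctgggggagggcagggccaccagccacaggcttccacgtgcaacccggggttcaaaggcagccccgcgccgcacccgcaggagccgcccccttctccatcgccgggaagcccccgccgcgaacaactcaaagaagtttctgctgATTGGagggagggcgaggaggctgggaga
Gadd45g: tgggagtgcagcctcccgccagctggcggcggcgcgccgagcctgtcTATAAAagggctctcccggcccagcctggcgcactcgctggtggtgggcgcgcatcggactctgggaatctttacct
Vegfd: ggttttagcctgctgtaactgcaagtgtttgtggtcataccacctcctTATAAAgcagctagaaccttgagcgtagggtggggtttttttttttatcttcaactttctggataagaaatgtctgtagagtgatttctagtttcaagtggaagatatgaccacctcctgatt

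The Set and Gadd45g stretches had a GC content of 68% and 68.5%, and the Vegfd stretch 40.4%. The Set peak held 1 ATTGG and no TATAAA, and the other 2 stretches held 1 TATAAA each. CCAAT in either orientation occurred in 37.4% of all promoter windows and TATAAA in 13.6%. Among the 220 windows of genes that hold a peak the shares were 39.1% and 8.64%, beside 38.2% and 7.33% for all genes in the expression table. A match describes these letters and is not evidence of binding. Sequence of peaks away from these windows was not used here.

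The peaks were short, with a tail of long ones. Every peak of both lists started on a multiple of 200 bases, so widths come in steps of 200. Of the 542 peaks, 369 (68.1%) were 200 bases wide, 93 were 400, 39 were 600 and 41 (7.56%) were 800 or more. Of the 423 lacZ peaks without lnc-31 overlap, 344 (81.3%) were 200 bases wide, 7 were 600 and none was wider. The mean width was 341 ± 312 bases (SD over 542 peaks) against 241 ± 88.4 bases (SD over 423 peaks), and the median was 200 in both. Together the 542 peaks covered 184.8 kb and the lacZ peaks 101.8 kb. The 54 peaks with lacZ overlap had 22 (40.7%) at 400 bases or more and reached 2000 bases. With 1 library for each probe set, and with the lacZ list used to choose the members, no difference between these sets of peaks could be tested. The values here and in the following paragraphs are descriptions.

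Most of the widest peaks with a known position sat near the 3′ ends of their genes. A peak of 2600 bases in Cnot6l, a deadenylase subunit of the CCR4-NOT complex, lay at chr5:96074401-96077000, 94.3% of the way from the 5′ to the 3′ end of the gene. The other peak of 2600 bases was in Nkap, at 93.1%. Sqle, the squalene epoxidase of cholesterol synthesis, held 1 peak of 2200 bases at chr15:59318401-59320600, and its strand was not in the tables used. Vegfd, a lymphatic growth factor, Msl3, a subunit of a chromatin acetylation complex, and Erlin1, an endoplasmic reticulum membrane protein, each held a peak of 2000 bases. Those 3 lay at 96.4%, 94.2% and 96.4% of the gene. Zmym5 (1800 bases, 92.2%), Zfp1 (1600 bases, 96.7%) and Nbeal1 (1400 bases, 97.5%) followed the same placement. Atrx, a chromatin remodelling ATPase, held a peak of 1800 bases at 47.3% of the gene. The Nbeal1 peak shared its width of 1400 bases with 2 others, in Atrx at 98.4% and in the kinetochore gene Zwint at 21.1%.

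**Figure D1:**
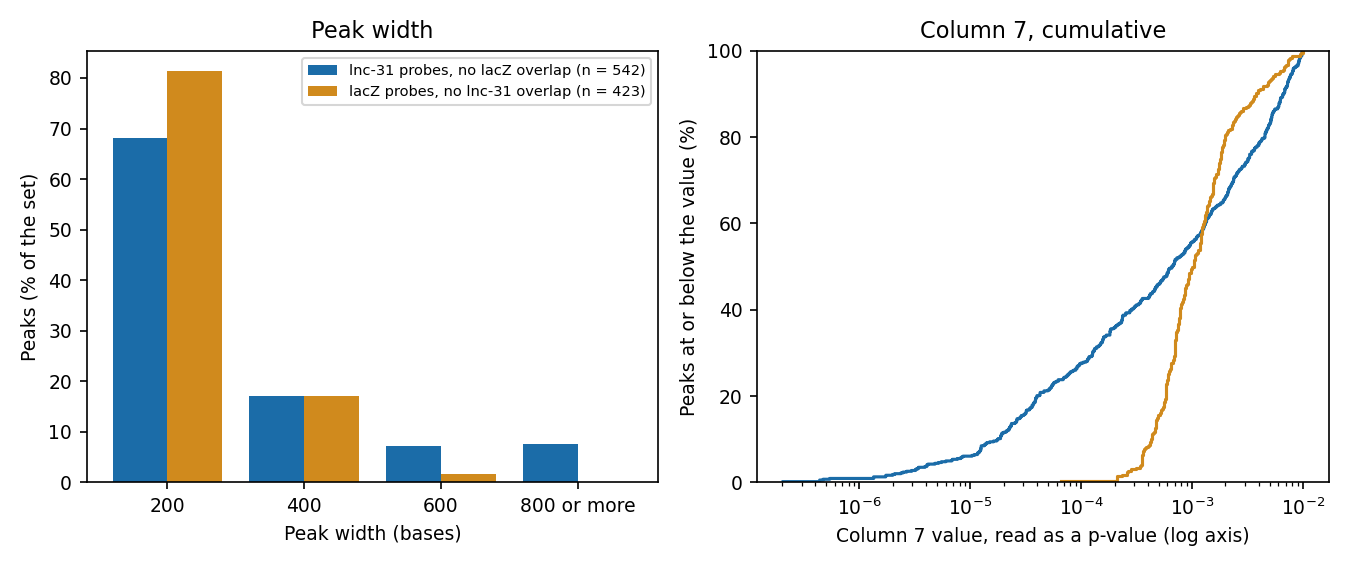
Left, the share of peaks (%) at each width in bases; right, the cumulative share of peaks (%) against the column 7 value on a log axis, for 542 lnc-31 probe peaks without lacZ overlap and 423 lacZ probe peaks without lnc-31 overlap. Peaks of 800 bases or more make up 7.56% of the first set and none of the second, and the first curve starts at smaller values.

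Column 7 values of the 542 peaks ran from 2.05e-07 to 0.00999, with a median of 0.00066. Their middle 50% lay between 7.73e-05 and 0.00321. For the 423 lacZ peaks the median was 0.00104 and the middle 50% lay between 0.000613 and 0.00181. At 0.0001 or less there were 150 of the 542 peaks (27.7%) and 1 of the 423 lacZ peaks (0.236%). The 54 lnc-31 peaks that overlapped lacZ peaks had a median of 0.000309, with 16 (29.6%) at 0.0001 or less. Small values were thus not particular to peaks without lacZ overlap. At the other end, the upper bound of the middle 50% was higher for the 542 peaks. The plot of widths and column 7 values shows both curves crossing. Whether the lists were made at the same depth was not given in the sources used here.

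The smallest column 7 values were not on the widest peaks. Of the 10 smallest, 9 belonged to peaks of 200 bases and 1, in the DNA polymerase beta gene Polb, to a peak of 400. Atrx held 4 of the 10, at 2.05e-07, 4.37e-07, 1.73e-06 and 1.99e-06. Others were in Cenpe (4.36e-07), Gm49890 (5.39e-07), Nmi (1.34e-06), Nkap (1.34e-06) and Polb (1.72e-06). Across the 542 peaks, which share 1 library, Spearman's correlation of width with column 7 was -0.19. The median column 7 value was 0.000976 at 200 bases, 0.00044 at 400, 0.000228 at 600 and 0.000285 at 800 or more.

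A peak's position was its midpoint along the span of its host gene, from 5′ (0%) to 3′ end (100%), and a midpoint outside the span was set to the nearest end. It could be given for 437 peaks in 166 of the 203 host genes, those whose strand the promoter table holds. The median position was 70.9%, and the middle 50% of peaks lay between 43.9% and 94.2%. Past the middle of the gene lay 306 of the 437 peaks (70.0%), and the 3′-most 10% of the span alone held 140 (32.0%). The 259 lacZ peaks with a position had a median of 38.2%, with 101 (39.0%) past the middle and 8 (3.09%) in the 3′-most 10%. No strand was known for 91 of the 528 member peaks in genes. For lacZ peaks it was missing for 154 of 413, the 42 in Ext1 among them, so more of that set is unseen here. The 33 lnc-31 peaks that overlapped lacZ peaks had a median of 49.5% and 2 (6.06%) in the 3′-most 10%. Exons and untranslated regions were not in the tables used, so these are positions in the gene body with introns included.

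**Figure D2:**
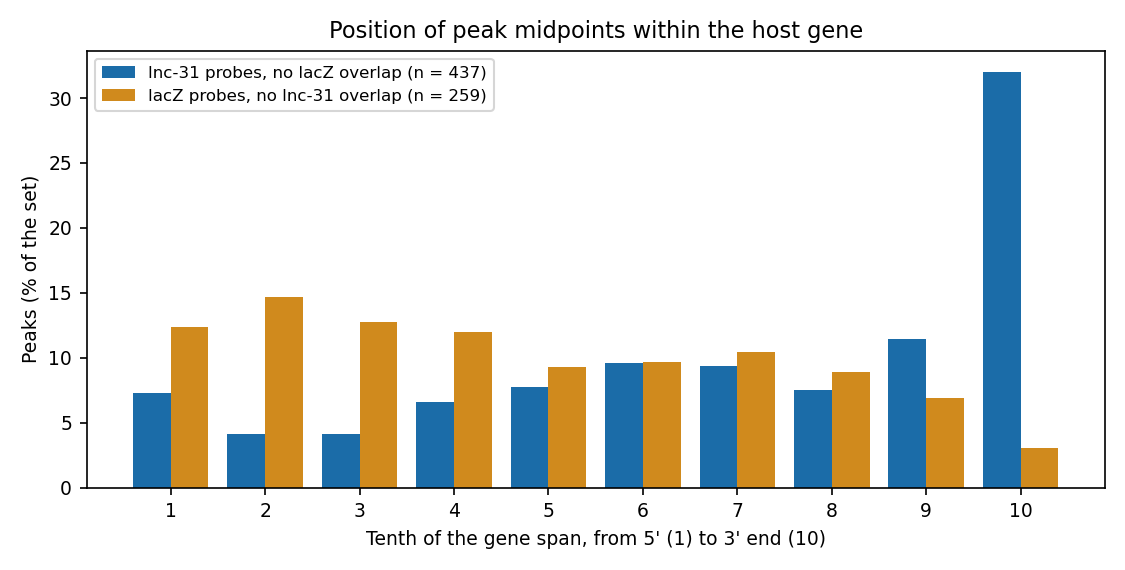
Share of peaks (%) whose midpoint falls in each of 10 equal parts of the host gene span, from the 5′ end (1) to the 3′ end (10), for 437 lnc-31 probe peaks without lacZ overlap and 259 lacZ probe peaks without lnc-31 overlap. The part at the 3′ end holds 32.0% of the former and 3.09% of the latter.

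The 3′ placement was seen gene by gene as well. With 1 value for each gene, the median over its peaks, 48 of 166 genes (28.9%) fell in the 3′-most 10%, against 4 of 157 genes (2.55%) for lacZ peaks. Of the 166 genes, 85 (51.2%) held at least 1 peak there. Among the 69 genes with 2 or more peaks, 54 (78.3%) did. The annotated 3′ end was within 1 kb of the midpoint for 49 peaks (11.2%), and the 5′ end for 21 (4.81%). For lacZ peaks those counts were 1 (0.386%) and 4 (1.54%). The 5′-most 10% of the span held 32 of the 437 peaks (7.32%), and the next 2 parts of that size held 18 each.

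Peaks in the 3′-most 10% of a gene were wider than the others. Their mean width was 466 ± 463 bases (SD, 140 peaks in 85 genes), and 69 of them (49.3%) reached 400 bases. Between the 2 end parts the mean was 297 ± 220 bases (SD, 265 peaks in 120 genes), and 67 (25.3%) reached 400. In the 5′-most 10% it was 250 ± 124 bases (SD, 32 peaks in 24 genes). Column 7 did not follow width here, with medians of 0.00127 at the 3′ end and 0.00044 in between. All 8 lacZ peaks in the 3′-most 10% were 200 bases wide. Within genes the pattern was looser: of the 44 genes whose peaks differed in width, 24 (54.5%) had their widest peak nearest the 3′ end.

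Of the 542 peaks, 14 touched no annotated gene, and these lay close to one. Distances to the nearest gene ran from 0.036 kb (Hsp90aa1) to 4.67 kb (Ttc33). A group of 5 lay past the 3′ end of Ttc33, between chr15:5218401 and 5223600, with widths of 200 to 1000 bases and column 7 values of 5.16e-06 to 0.00105. The remaining 9 were next to Rab21 (2 peaks), Chordc1 (2 peaks), Hsp90aa1, Pdzd8, Rmdn3, Polr3k and Hgf (1 each).

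Peaks clustered along genes. The 528 peaks inside genes fell in 203 genes, of which 120 held 1 peak and 83 held 2 or more. The 83 genes carried 408 peaks, 75.3% of the 542. There were 24 genes with 5 or more peaks, and they held 247 (45.6%). For lacZ peaks, 67 of 211 genes held 2 or more, with 269 of 423 peaks (63.6%), and 12 genes held 5 or more, with 125 (29.6%). The single gene with most peaks went the other way: Atrx held 5.54% of the 542, and Ext1, with 42, held 9.93% of the lacZ peaks. The median gap from a peak to the nearest other peak of its set was 2200 bases for the 542 and 19200 bases for the lacZ peaks. A gap of 1 kb or less was found for 211 peaks (38.9%) against 55 (13.0%). In 69 cases (12.7%) the gap was exactly 200 bases, a single missing step, against 12 (2.84%).

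Joining peaks with gaps of up to 1 kb gave 413 runs, of which 331 were single peaks and 25 held 3 or more. The longest run covered 6.6 kb with 6 peaks in Nbeal1, at 95.7% to 99.4% of the gene. Cnot6l had 6 peaks over 6.2 kb at 94.3% to 99.3%. Agfg1, which encodes a protein with an Arf GTPase-activating domain, had 6 peaks over 5.2 kb at 91.6% to 98.7%. Those 3 runs end close to the 3′ end of their gene. Runs elsewhere in a gene occurred too: Cenpe had 4 peaks over 4.2 kb at 44.7% to 51.1%, and Zwint 4 over 3.4 kb at 13.2% to 28.6%. The lacZ peaks formed 3 runs of 3 or more peaks, the longest 3.2 kb.

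Among individual genes, Atrx held the most peaks, 30 over its 131.8 kb on chromosome X, from 0.2% to 99.9% of the gene. They summed to 11200 bases, and no lacZ peak fell in Atrx. Cenpe, the kinesin that moves chromosomes at the kinetochore, held 26 peaks (8000 bases) over 61.0 kb, from 4.2% to 95.3%. Its density, 42.6 peaks per 100 kb, was the highest of the 24 genes, which ranged down to 1.02. Nbeal1, a BEACH domain protein, held 24 peaks (9000 bases), all between 49.4% and 99.4% of its 159.6 kb. In Nbeal1 the 6 peaks of the run at the 3′ end were 400 to 1400 bases wide, and the other 18 were 200 bases except for 1 of 600. The first Nbeal1 peak lay at 49.4% of the gene and none lay before it, while Atrx and Cenpe had peaks along most of the gene.

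Further genes with many peaks included Aspm, a spindle pole protein (14), Arhgef10, a guanine nucleotide exchange factor (13), and Cnot6l (12). Rreb1, a zinc finger transcription factor, and Rock1 had 10 each, and Ccdc88a, an actin-binding protein, had 9. Peaks of Rreb1 lay from 69.9% to 99.8% of the gene, those of Ccdc88a from 58.0% to 98.6%, and those of Aspm from 1.8% to 99.3%. Aspm also held 1 peak that overlapped a lacZ peak. The 10 genes with most peaks together held 160 (29.5%). Fhl2, a LIM domain cofactor of striated muscle, kept its 6 peaks between 47.8% and 58.1%, so not every gene with several peaks had them at the 3′ end.

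**Figure D3:**
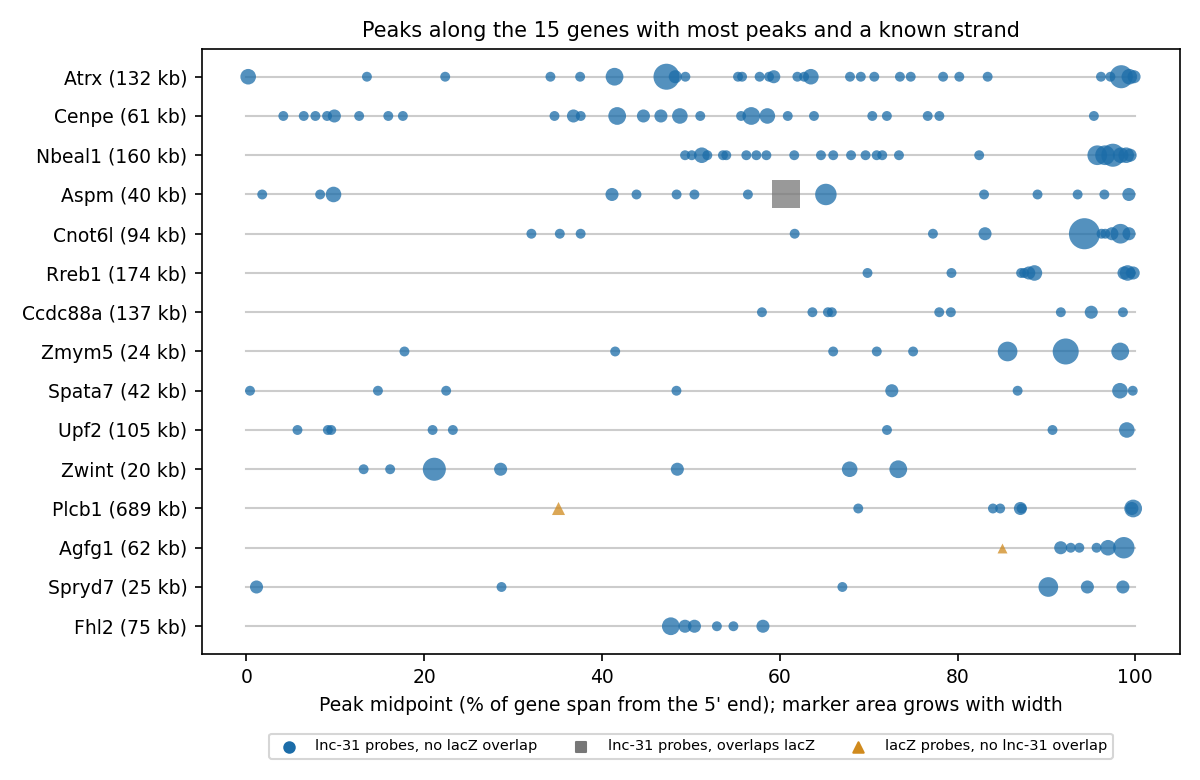
Peak midpoints along the 15 genes with most peaks and a known strand, as % of the gene span from the 5′ end; marker area grows with peak width, circles are lnc-31 probe peaks without lacZ overlap, squares lnc-31 peaks overlapping lacZ and triangles lacZ peaks. Atrx (30) and Cenpe (26) carry peaks along the gene, while the 24 of Nbeal1 lie between 49.4% and 99.4% and the 6 of Fhl2 between 47.8% and 58.1%.

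Rock1, the mRNA named in the title of the series, held 10 peaks, each of 200 bases, and 0 lacZ peaks. They lay between chr18:10065801 and chr18:10182000, and covered 1.70% of the 117.9 kb gene. Their column 7 values ran from 2.10e-05 to 0.00840, with a median of 0.00392, above the 0.00066 of all 542 peaks. By coordinate, 9 of the 10 lay within 35.2 kb, and 1, with the smallest value, lay 80.8 kb further on. Rock2, its paralog, held 0 of the 542 peaks and 3 lacZ peaks. The gene of the RNA-binding protein YB-1, Ybx1, held none of either.

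The peaks were spread unevenly over chromosomes, with counts raised by genes with many peaks. Chromosome 1 held 81 peaks (14.9%), of which Nbeal1 and Aspm account for 24 and 14. Chromosome X held 58 (10.7%), 30 of them in Atrx, and with 138 peaks per 1000 rows of the expression table it had the highest density. Chromosome 2 held 45, chromosome 3 held 40 (26 in Cenpe), and chromosomes 6 and 16 held 8 each. Counted as table rows that hold a peak, chromosome 1 had 16 of 751 (2.13%) and X 11 of 419 (2.63%). Across the autosomes and X this share ran from 0.472% on chromosome 11 to 2.76% on chromosome 12. Chromosome Y held 0 of the 542 peaks. The lacZ peaks had 18 on chromosome 1 and 7 on X. Their most frequent chromosome was 15, with 119, of which 42 lay in Ext1.

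**Figure D4:**
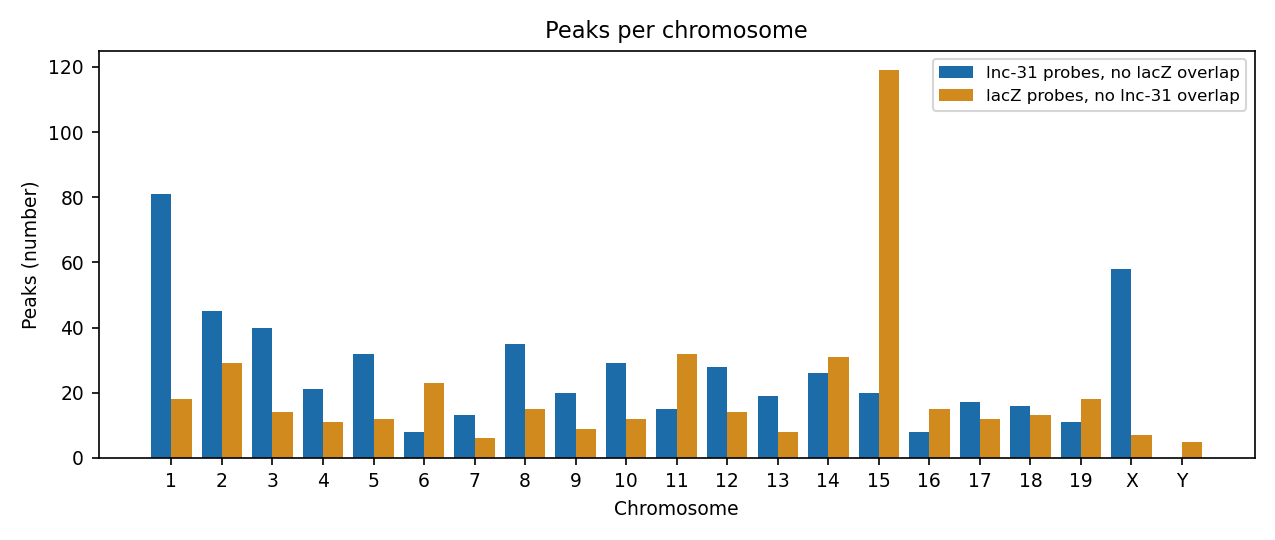
Number of peaks on each chromosome for lnc-31 probe peaks without lacZ overlap and lacZ probe peaks without lnc-31 overlap. Chromosome 1 (81) and X (58) lead in the first set and chromosome 15 (119) in the second.

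Protein-coding genes held 517 of the 542 peaks (95.4%, 197 genes) and lncRNA genes 11 (2.03%, 6 genes). Where a peak touched several genes, as 28 did, a protein-coding gene was preferred as host. The strand column of the lists holds 1 symbol throughout, so transcripts from the 2 strands of a locus could not be told apart. The lncRNA hosts were Gm49890 (4 peaks), Xist (3), Ftx, 1700055D18Rik, E230014E18Rik and Gm29630 (1 each). Xist coats the inactive X chromosome, and Ftx is a noncoding gene of the same X region. For lacZ peaks the lncRNA share was 27 of 423 (6.38%), and for the 54 overlapping peaks 18 (33.3%).

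Host genes were expressed at moderate levels. FPKM is a count of fragments scaled to transcript length and library size. The 197 hosts with a row in the table had a median of 14.4 FPKM in the scrambled siRNA libraries (middle 50% from 8.01 to 29.4), and 139 of them (70.6%) reached 10 FPKM. The 206 lacZ hosts (1.63% of rows) had a median of 36.1 FPKM (17.5 to 79.5), and the 12664 rows matched to a gene 11.8 FPKM. Of all rows, 1.56% held a peak, and the share was highest, 2.69%, in the sixth of 10 equal classes by level (11.8 to 16.9 FPKM). It was 1.26% in the class of highest level. For lacZ peaks the share rose to 4.58% in that class. Longer genes more often held a peak, from 0.158% of rows in the shortest of 10 equal classes by span to 3.08% in the longest, and to 6.95% for lacZ peaks. Across hosts, Spearman's correlation of peak number was 0.15 with span (203 genes) and -0.08 with FPKM (197 genes).

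Lists of genes by function were read against the 1.56% of rows that hold a peak, which is the background of the contrast that chose the peaks, so nothing is inferred from the shares. Genes of the centrosome, cilium and mitotic spindle held a peak in 6 of 46 cases (13.0%), with 47 peaks: Cenpe, Aspm, the kinetochore protein Cenpf, and Cep290, Cep162 and Cep76. Splicing factors did in 7 of 63 (11.1%), with 8 peaks, and 16 (25.4%) held a lacZ peak. Chromatin regulators did in 5 of 60 (8.33%), with 41 peaks, 30 of them in Atrx. Genes of mRNA deadenylation and decay did in 3 of 46 (6.52%), namely Cnot6l (12), the nonsense-mediated decay factor Upf2 (8) and Smg1 (3), a kinase of the same pathway. LacZ peaks without lnc-31 overlap fell in 3 genes of the centrosome list (6.52%), 2 chromatin regulators (3.33%) and 2 decay genes (4.35%). Over all rows that share was 1.63%. The centrosome and chromatin lists had median spans of 61.0 kb and 73.1 kb against 21.4 kb for all rows.

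Other lists had 3 hosts or fewer. Cholesterol and fatty acid synthesis had 2 of 38 (5.26%, Sqle and Erlin1). Ubiquitin ligases had 3 of 64 (4.69%, Trip12 and Rnf6 among them) and membrane trafficking 2 of 54 (3.70%, Nbeal1 and Rab21). Nuclear and snoRNA-host noncoding RNAs had 2 of 20 (Xist and Ftx). Each of these shares was above the 1.56% of all rows. A lacZ peak without lnc-31 overlap was held by 4 ubiquitin ligases (6.25%) and 2 trafficking genes (3.70%). The same was true of 2 of the noncoding RNAs and of no cholesterol gene. The ROCK and actomyosin list had Rock1 alone of 34, and 4 of its genes held a lacZ peak. Muscle regulators and sarcomere genes had Utrn alone of 48, growth signalling Vegfd alone of 51, ribosomal proteins Rpl22 alone of 76 and zinc finger genes named Zfp had Zfp1 alone of 278. Extracellular matrix genes had none of the 47 in the table, while 7 held a lacZ peak. Cold shock domain genes had none of 5.

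Few peaks lay close to the limit set by the lacZ list. Of the 542 peaks, 3 were directly adjacent to a lacZ peak: 200-base peaks in Hnrnpa3 (column 7 value 0.000534), Xist (0.0051) and Srek1 (0.00541). Within 1 kb of a lacZ peak lay 5 peaks. On the other side, the 54 peaks left out overlapped lacZ peaks by 200 bases in 34 cases and by 400 to 800 in the others. A total of 56 peaks (10.3%) lay in 19 genes that also held a lacZ peak. Those 19 genes are 9.36% of the 203 host genes and 8.68% of the 219 lacZ host genes. Both shares were above those over all rows matched to a gene. Of these rows, 1.56% held 1 or more of the 542 peaks and 1.63% a lacZ peak without lnc-31 overlap.

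The knockdown is a separate experiment, and it asked whether genes holding these peaks changed when lnc-31 was targeted. Whether each library was a culture of its own is not in the labels, so the p-values cover the spread between these 4 libraries only, and that spread may be technical. The table row that names Mir31 did not show the knockdown: it was at 13.4 and 15.6 FPKM in the scrambled siRNA libraries and at 12.1 and 14.1 in those labelled lnc-31 siRNA (log2 fold change -0.14, SE 0.099, limma adjusted p = 0.38). The groups overlapped. No separate row for the spliced lncRNA was used, so the treatment is given by its label. The row of highest FPKM was a different one in each library: Gm27786 (454325) and mt-Nd2 (395110) in scrambled siRNA 1 and 2, and mt-Tr (414236) and mt-Ta (582101) in lnc-31 siRNA 1 and 2. The median of the hosts was 14.3 to 15.3 FPKM in all 4.

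The share of hosts that changed was close to that of all genes. Of 195 hosts tested, 22 (11.3%) were called by limma at an adjusted p under 0.05, against 12.4% of all 11500 rows. Higher with lnc-31 siRNA were 8 (background 5.64%), and lower were 14 (background 6.78%). The median log2 fold change was -0.01 for the hosts and -0.01 for all rows. The libraries of the 2 groups did not overlap for 110 hosts (56.4%), against 60.2% of all rows. Among the 24 genes with 5 or more peaks, 2 were called. Of 204 lacZ hosts, 32 (15.7%) were called. Leaving out 1 library lowered the count to 4 and 2 (without scrambled siRNA 1 or 2) and to 7 and 6 (without lnc-31 siRNA 1 or 2). These were 2.05%, 1.03%, 3.59% and 3.08% of the hosts, beside 2.74%, 3.33%, 5.55% and 4.09% of all rows in the same fits. The summed FPKM of 9 myoblast markers was 514 and 532 with scrambled siRNA and 637 and 648 with lnc-31 siRNA, although Vcam1 (29.8 and 30.5, then 24.4 and 25.5) and Myf5 (38.6 and 37.5, then 35.2 and 35.4) went the other way. That of the 3 fibroblast markers in the table, mostly Col3a1, was 425 and 445 against 571 and 563. Their part in these counts was not tested.

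Gadd45g, a stress-induced growth arrest gene with 2 peaks, had 42.6 and 44.2 FPKM in the scrambled siRNA libraries and stood at 63.9 and 68.7 with lnc-31 siRNA. Both treated libraries were above both controls, and the log2 fold change was 0.60 (SE 0.052, limma adjusted p = 0.0057). It was the only host called at 1.5-fold or more. Its 2 peaks cover 400 bases, at 1.42% and 34.7% of the gene. The other hosts with the highest fold changes were Arhgap28, a GTPase-activating protein (0.33), Arhgef10 (0.33), the endoplasmic reticulum co-chaperone Dnajb9 (0.31) and Lrif1 (0.27). Arhgef10 was at 14.3 and 14.4 FPKM and then at 17.4 and 19.2 (SE 0.061, limma adjusted p = 0.029). Fewer cells of a type and less RNA in each cell cannot be told apart in such bulk libraries.

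Set, a histone chaperone and phosphatase inhibitor whose start is printed above, had 296 and 313 FPKM in the scrambled siRNA libraries and stood at 216 and 230 with lnc-31 siRNA. Both treated libraries were below both controls, and its log2 fold change was -0.45 (SE 0.053, limma adjusted p = 0.010). Its 2 peaks lay at the annotated start and at 42.6% of the gene, and both touched a promoter window. Most bases of the first, chr2:30061801-30062000, lie before the start site at chr2:30061996. Lower still were Ncoa7, a nuclear receptor coactivator (6.92 and 7.41 FPKM, then 4.81 and 4.83, log2 fold change -0.49), and the cyclophilin Ppig (26.6 and 24.1, then 17.7 and 18.1, -0.48). The microtubule-associated gene Eml1 (-0.37), Cenpf (-0.34), Smg1 (-0.34) and Ccdc88a (-0.33) were also called lower. Of the 12 called genes named by rule, 10 were no longer called under at least 1 alternative, in most cases with 1 library left out.

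**Figure D5:**
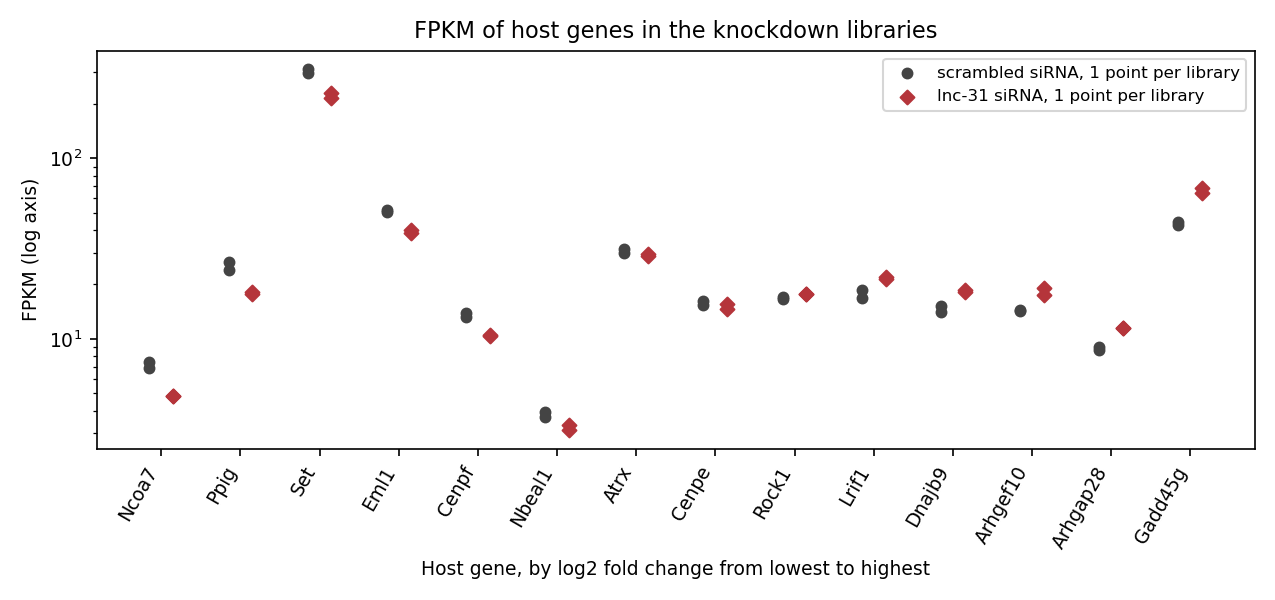
FPKM (log axis) of 14 host genes in the 2 scrambled siRNA libraries (circles) and the 2 lnc-31 siRNA libraries (diamonds), 1 point for each library, ordered by log2 fold change. Gadd45g has the highest fold change (0.60) and Ncoa7, Ppig and Set the lowest (-0.49, -0.48 and -0.45), while Rock1, Atrx, Cenpe and Nbeal1 were not called.

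The 3 genes with most peaks did not pass the test, and neither did Rock1. Atrx had 29.7 and 31.4 FPKM in the scrambled siRNA libraries and stood at 29.6 and 28.6 with lnc-31 siRNA, a log2 fold change of -0.07 (SE 0.049, limma adjusted p = 0.40). Cenpe was at 15.4 and 16.3 and then at 14.7 and 15.6, with overlapping groups (-0.06, SE 0.056, limma adjusted p = 0.50). Nbeal1 was at 3.69 and 3.93 and then at 3.35 and 3.11 (-0.19, SE 0.077, limma adjusted p = 0.17). Rock1 was at 16.6 and 17.1 and then at 17.8 and 17.6, so its groups did not overlap, but the log2 fold change was 0.07 (SE 0.047, limma adjusted p = 0.38). Of the 10 genes with most peaks, Arhgef10 and Ccdc88a were called, in opposite directions. Across the 195 hosts, Spearman's correlation of peak number with log2 fold change was 0.04.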

How the data were processed

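The deposited peak lists of the lnc-31 and lacZ pull-downs (1 library each) and the FPKM table of 4 siRNA libraries were used. FPKM values were made by the authors on mm10 with TopHat2, Cuffdiff, Bowtie2, BWA, CASAVA and Trimmomatic, and pull-down reads were processed with TopHat2, Bowtie2, cutadapt, Picard, CASAVA and Trimmomatic on the same build, in an order the submitters' processing notes do not state. Neither the peak caller nor the read depth of a library is given in the sources used here. In the deposited lists, column 7 was read as a p-value from its range alone. Knockdown RNA went through a stranded mRNA kit, per the labels' protocols.

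Overlaps used bedtools 2.31.1 (minimum 1 base). Genes, promoter windows and miRNAs came from RefSeq GRCm38.p6. Of 13376 table rows, 12674 (94.8%) matched a gene. A peak's host was the overlapping gene that was protein-coding, then had the larger overlap, then was shorter. Rows averaging at least 1 FPKM were compared on log2(FPKM + 1), which understates changes of low genes, with limma 3.58.1 in R 4.3.3 (trended prior, two-sided, Benjamini-Hochberg over 11500 rows, threshold 0.05). On simulated data for this comparison (11459 genes) the fit recovered 95.5% of 1.5-fold and 100% of 2-fold changes, with 4.37% false calls. The simulation used independent normal noise and planted no change below 1.5-fold and none in the lowest genes. All called hosts but Gadd45g changed less than that, so these rates do not cover them. Genes were named by rule: the 10 widest peaks, the 10 with smallest column 7, the 10 genes with most peaks, the 5 highest and 5 lowest called hosts, up to 3 hosts of each list, the 3 peaks closest to lacZ, and Rock1, Ybx1 and Mir31. Zwint, Fhl2, Agfg1, Rock2, Ext1, Vcam1, Myf5, the rows of highest FPKM and peaks outside genes were named after their values were seen. Alternatives were other overlap rules, subsets of peaks, other pseudocounts, filters, scalings and priors, a replicate block, and each library left out. The members and the 15 gene lists were chosen with earlier results of these data known. Markers of 7 cell types were checked: all 9 myoblast markers had a row, against 3 of 5 fibroblast, 1 of 4 adipocyte, 0 of 4 endothelial, 2 of 4 blood, 1 of 4 neural and 1 of 4 epithelial, and no marker held a peak. Some genes that the naming rule selects are not reported here.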

Additional observations from a re-analysis of the deposited data

How the results depend on the processing

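The 3 other rules for lacZ overlap gave 543, 537 and 486 peaks in place of 542, with 31.9% to 32.0% at 400 bases or more, 74.7% to 75.3% in genes with 2 or more peaks, 69.7% to 70.6% past the middle of the gene, 95.4% to 96.3% in protein-coding genes and 69.4% to 70.6% of hosts at 10 FPKM or more. The chromosome 1 share was run for 1 of them (14.9%). Keeping only column 7 values up to 0.001 left 302 peaks, with 38.4% at 400 bases or more (31.9% before), 70.2% in genes with 2 or more peaks (75.3% before) and 18.9% on chromosome 1 (14.9% before). Keeping only peaks of 400 bases or more left 173, 100% of them wide by construction, with 58.4% in genes with 2 or more peaks, 92.5% in protein-coding genes (95.4% before) and 63.6% of hosts at 10 FPKM or more (70.6% before). With peaks in exactly 1 gene, 98.6% were in protein-coding genes. In 2 alternatives chosen after seeing the data, the share in genes with 2 or more peaks was 69.7% without chromosomes 1 and X and 64.9% without the 10 genes with most peaks. The share past the middle of the gene was 67.8% to 73.8% under every alternative run for it. In the knockdown, quantile normalization called 35 hosts (15 higher), 17.9% beside 16.8% of all rows. A constant prior variance called 18 (5 higher), 9.23% beside 9.39%. Leaving out 1 library gave 2 to 7 called hosts, 1 to 3 higher and 1 to 5 lower, while 2.74% to 5.55% of all rows were called. With the replicate number as a block, 23 hosts were called (8 higher and 15 lower), 11.8% beside 14.0% of all rows. The numbers do not pair the samples by label, and deviations of same-numbered libraries correlated at -0.09 (Pearson) and 0.05 (Spearman) over 11500 rows. Depth limits are unknown, since neither file type gives reads.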
